A study of Mus musculus with 6 samples.

Results

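The growth hormone and insulin-like growth factor (IGF) axis was followed through 10 genes chosen by name: the receptor gene Ghr, its transcription factor Stat5b, the feedback inhibitors Socs2 and Cish, the hormone Igf1, its carrier subunit Igfals, and the binding protein genes Igfbp1, Igfbp2, Igfbp3 and Igfbp4. All 10 were found among the 56350 genes of the count table, and all 10 passed the filter on low counts that left 16051 genes to test. The data held 6 mouse liver samples, 3 of them labelled wild-type (WT). In the other 3, Atg14, a gene needed to start autophagosome formation, was knocked out in hepatocytes (HepKO from here on). PolyA RNA of liver tissue was sequenced with a stranded mRNA kit, so the libraries hold RNA of every liver cell type. The sources used here gave no age, sex, diet, strain or Cre driver. Whether each sample is a different mouse is not stated in the labels, and the p-values therefore cover only the spread among these libraries, which may be technical.

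Pituitary growth hormone binds its receptor on hepatocytes, the receptor-bound kinase JAK2 phosphorylates STAT5B, and STAT5B switches on Igf1, Igfals, Socs2 and Cish. The liver secretes most of the IGF-1 in blood, where it circulates bound to IGF-binding proteins, chiefly in a complex with IGFBP3 and the acid-labile subunit encoded by Igfals. The same hormone, released in pulses in male mice and more steadily in females, sets the sex-biased expression of many liver genes. Insulin and nutrition act on the axis as well, and hepatic Igfbp1 is a classical target that insulin represses through FOXO1.

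Libraries held 33145684 to 48951937 counts. Atg14 had 620, 796 and 719 counts in the WT libraries and 329, 379 and 313 counts in the HepKO libraries (log2 fold change -1.54 ± 0.16 SE, FDR 4.69e-04). HepKO replicate 1 stood apart in its sex-linked transcripts. It had 30377 counts of Xist, the RNA of the inactive X chromosome, against 2 to 22 in the other libraries. Its count of the Y-linked gene Ddx3y was 3, against 2596 to 3482 elsewhere. These are the transcripts of a female in HepKO replicate 1 and of males in the other 5 libraries, so sex and genotype are partly mixed in the comparison. Values for the axis genes are therefore also given without that library. The composition of the RNA differed as well. The summed level of 8 hepatocyte markers was 92039 to 115099 CPM (counts scaled to a common library size) in WT and 39795 to 48650.5 CPM in HepKO. Most of that sum was Alb, at 90310, 77106 and 68825 CPM in WT and 29488, 35505 and 36371 CPM in HepKO. The summed level of 7 Kupffer cell markers was 137 to 264 CPM in WT and 325 to 616 CPM in HepKO. In bulk tissue, fewer cells of a type and less RNA per cell cannot be told apart.

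Of the 10 axis genes, 5 were lower in HepKO (Ghr, Igf1, Igfals, Igfbp2 and Igfbp4), Socs2 was higher, and Stat5b, Cish, Igfbp1 and Igfbp3 did not pass the test. The test was edgeR's quasi-likelihood test over all genes with calls at a false discovery rate (FDR, Benjamini-Hochberg) under 0.05 and with libraries scaled by the trimmed mean of M-values (TMM). Among all tested genes 18.7% were called lower and 19.5% higher. Without HepKO replicate 1 the 5 lower calls and the Socs2 call remained, where 17.5% of genes were called lower and 16.3% higher. WT and HepKO libraries were fully separated for 6 of the 10 genes, against 53.5% of all tested genes, so that count is near the background. Scaling by library totals shifted the median log2 fold change of all genes from 0.01 to 0.52. Under it 3 axis genes were called lower (Ghr, Igf1 and Igfbp2) where 5.84% of all genes were, and 3 were called higher (Socs2, Igfbp1 and Stat5b) where 46.4% of all genes were.

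**Figure D1:**
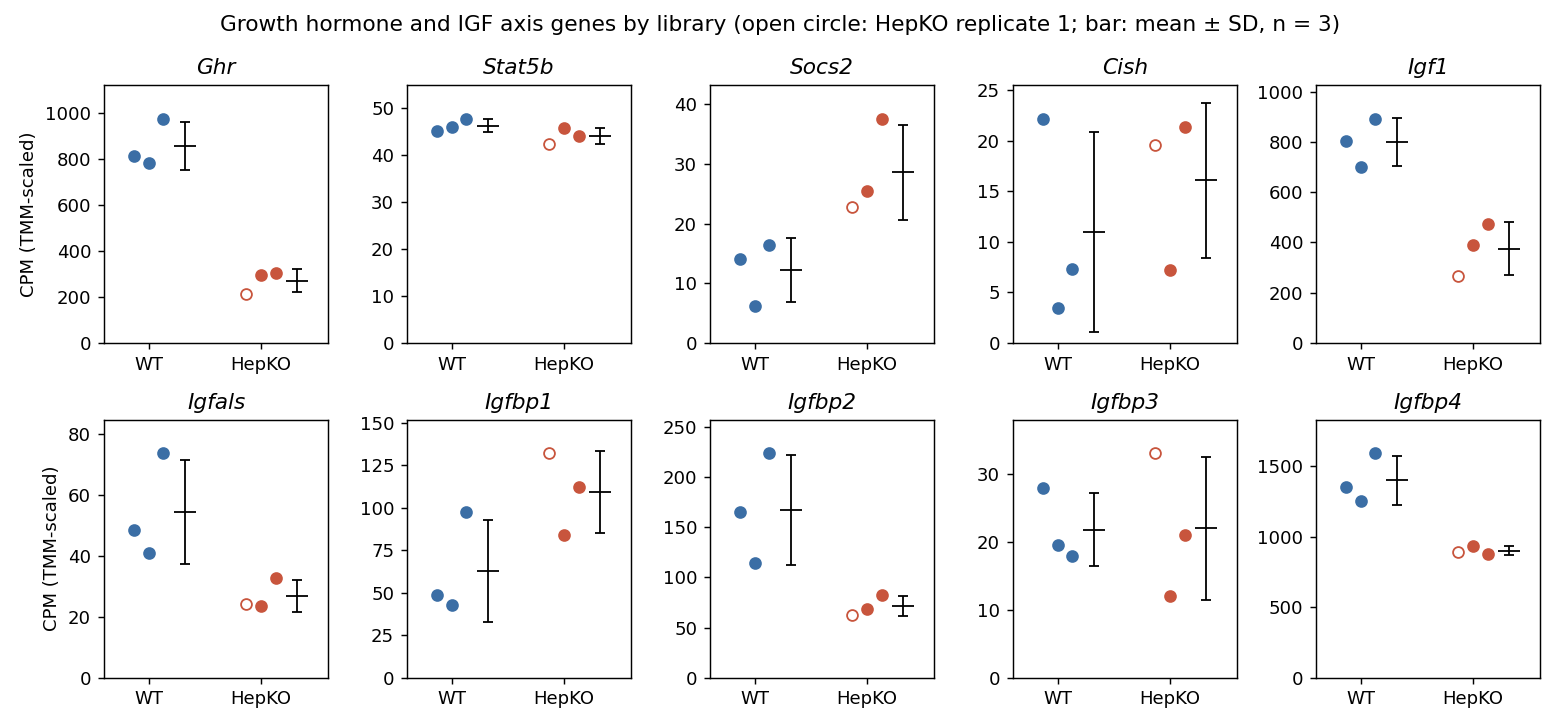
Expression of the 10 axis genes in each library (y axis, TMM-scaled CPM from 0, a separate scale per gene; points, libraries; bars, mean ± SD of 3; open circle, HepKO replicate 1). The groups separate for Ghr, Igf1, Igfals, Igfbp2 and Igfbp4 (HepKO lower) and for Socs2 (HepKO higher), and overlap for Stat5b, Cish, Igfbp1 and Igfbp3.

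The receptor transcript showed the largest fall of the 10 genes. Ghr (chromosome 15, 3317760 to 3583492, minus strand, GRCm38), which encodes the growth hormone receptor, had 812, 781 and 977 CPM in the WT libraries (replicates 1, 2 and 3, the order used throughout). The HepKO libraries had 215, 296 and 303 CPM. No HepKO library came near the lowest WT library. The group means were 857 ± 105 and 271 ± 48.9 CPM (SD, n = 3 each), a 3.16-fold difference (log2 fold change -1.66 ± 0.17 SE, FDR 3.78e-04). It was called lower under all 17 alternative settings tried, with log2 fold changes of -1.75 to -1.001. Under library totals the log2 fold change was -1.15 (FDR 9.05e-04), and without HepKO replicate 1 it was -1.52 (FDR 3.90e-04).

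Stat5b, the transcription factor that carries the growth hormone signal to the nucleus, had the narrowest spread of the 10 genes within WT. Stat5b (chromosome 11, 100780731 to 100850724, minus strand) had 45.2, 45.9 and 47.8 CPM in WT and 42.4, 45.8 and 44.1 CPM in HepKO. Its highest library exceeded its lowest by a factor of 1.06 within WT and 1.08 within HepKO. The difference under TMM was small (log2 fold change -0.07 ± 0.08 SE, FDR 0.554), and was -0.05 (FDR 0.713) without HepKO replicate 1. Its sign depended on the scaling: under library totals Stat5b was called higher (log2 fold change 0.44, FDR 0.00359), by less than the median shift of all genes.

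Socs2, a suppressor of cytokine signalling that damps the growth hormone receptor, moved opposite to Ghr. Socs2 (chromosome 10, 95385362 to 95417180, minus strand) had 14.0, 6.24 and 16.4 CPM in WT and 22.7, 25.5 and 37.6 CPM in HepKO. Each HepKO library was above each WT library, and WT replicate 2 was the lowest. Means were 12.2 ± 5.31 and 28.6 ± 7.93 CPM, 2.34-fold higher in HepKO (log2 fold change 1.23 ± 0.34 SE, FDR 0.0244). The call held under library totals (log2 fold change 1.75, FDR 0.00372) and without HepKO replicate 1 (1.36, FDR 0.0268). It ended without HepKO replicate 3 (0.97, FDR 0.0830), and over the settings tried the FDR ranged from 2.39e-05 to 0.0830.

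Cish, the other STAT5-induced inhibitor, varied more within groups than any other axis gene. Cish (chromosome 9, 107296026 to 107302784, plus strand) had 22.2, 3.45 and 7.29 CPM in WT and 19.6, 7.24 and 21.4 CPM in HepKO. The WT libraries alone spanned a factor of 6.43, and the groups overlapped. The log2 fold change of 0.56 ± 0.64 SE did not pass the test (FDR 0.536), and it was 1.58 (FDR 0.0575) without WT replicate 1 and 0.38 (FDR 0.731) without HepKO replicate 1. Exons of Cish share 261 bases with Gm17040 and 479 with Gm17041 on the opposite strand, which had at most 11 and 0 counts in a library. In WT both inhibitors were lowest in replicate 2. In HepKO, Cish was lowest in replicate 2 and Socs2 in replicate 1.

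Igf1, the endocrine product of the axis, was lower in HepKO. Igf1 (chromosome 10, 87858265 to 87937042, plus strand) had 805, 702 and 893 CPM in WT. The HepKO libraries had 265, 390 and 472 CPM, all below the WT range, with HepKO replicate 1 the lowest. Means were 800 ± 95.5 and 376 ± 104 CPM, a 2.13-fold difference (log2 fold change -1.09 ± 0.21 SE, FDR 0.00518). The log2 fold change was -0.90 (FDR 0.00370) when HepKO replicate 1 was left out, and -0.58 under library totals (FDR 0.0450). The difference was called under all 17 alternative settings.

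Igfals, which encodes the acid-labile subunit of the circulating complex, fell by a similar amount under TMM. Igfals (chromosome 17, 24865997 to 24882010, plus strand) had 48.7, 40.9 and 73.8 CPM in WT and 24.2, 23.5 and 32.8 CPM in HepKO. The groups did not overlap, and the spread was wider in WT. Means were 54.5 ± 17.2 and 26.8 ± 5.18 CPM, 2.03-fold lower in HepKO (log2 fold change -1.02 ± 0.23 SE, FDR 0.0101). The call held without HepKO replicate 1 (-0.96, FDR 0.0289) and ended under library totals (-0.51, FDR 0.0852).

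Of the 4 binding proteins, Igfbp2 and Igfbp4 fell, and Igfbp1 and Igfbp3 did not pass the test. Igfbp4, a binding protein that inhibits IGF action locally, had 1356, 1254 and 1592 CPM in WT and 889, 936 and 877 CPM in HepKO. It was the most abundant axis gene per kilobase of exon in both groups. The HepKO libraries were close together and all below WT (1.56-fold, log2 fold change -0.64 ± 0.13 SE, FDR 0.00600). The call on Igfbp4 (chromosome 11, 99041244 to 99054392, plus strand) rested on the scaling, since under library totals the log2 fold change was -0.12 (FDR 0.411), while without HepKO replicate 1 it was -0.63 (FDR 0.0108). Igfbp2, a binding protein made by hepatocytes, had 165, 114 and 224 CPM in WT and 62.9, 68.4 and 82.8 CPM in HepKO. The highest HepKO library was below the lowest WT library, a 2.35-fold difference in the fit (log2 fold change -1.23 ± 0.23 SE, FDR 0.00477). Igfbp2 (chromosome 1, 72824503 to 72852474, plus strand) was also called without HepKO replicate 1 (log2 fold change -1.16, FDR 0.0145) and under library totals (-0.72, FDR 0.0269), but not under library totals without HepKO replicate 1 (-0.63, FDR 0.0698).

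Igfbp1, the insulin-repressed binding protein, had the highest log2 fold change of the 4 binding proteins but missed the threshold under TMM. It had 48.8, 42.6 and 97.3 CPM in WT and 132, 84.0 and 112 CPM in HepKO. WT replicate 3 lay above HepKO replicate 2, so the groups overlapped by that pair. The mean was 62.9 ± 29.98 CPM in WT and 109 ± 24.1 CPM in HepKO (log2 fold change 0.80 ± 0.31 SE, FDR 0.0779). Igfbp1 was called higher without WT replicate 3 (log2 fold change 1.28, FDR 0.00463), under library totals (1.32, FDR 0.00849) and with DESeq2 (0.81, FDR 0.0186). Without HepKO replicate 1 it was not (0.64, FDR 0.190), and over all settings tried the FDR ranged from 0.00189 to 0.203. Igfbp3, the main carrier of IGF-1 in blood, is made in liver largely by non-parenchymal cells. It had 27.9, 19.5 and 17.9 CPM in WT and 32.97, 12.04 and 20.9 CPM in HepKO, with no group difference under TMM (log2 fold change 0.02 ± 0.34 SE, FDR 0.970). Its highest value was in HepKO replicate 1, the library that also had the highest summed level of Kupffer cell markers (616 CPM) and of 8 sinusoidal endothelial markers (229 CPM). The part of those cells in the value was not tested. It was -0.41 on the log2 scale (FDR 0.300) when that library was left out. Igfbp1 (7197782 to 7202546, plus strand) and Igfbp3 (7206086 to 7213923, minus strand) are neighbours on chromosome 11 and point toward each other, with 3539 bases between them.

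**Figure D2:**
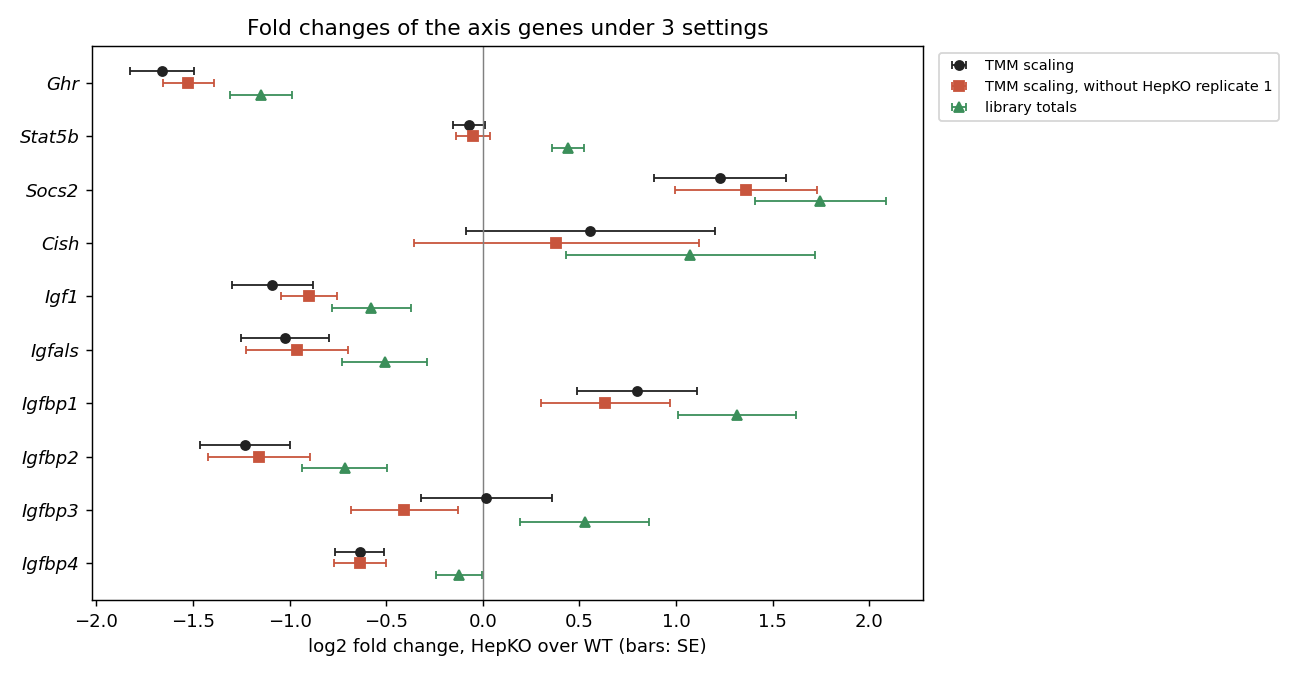
Log2 fold change of each axis gene, HepKO over WT (x axis; bars, SE), under TMM scaling with all libraries, under TMM without HepKO replicate 1, and under library totals. Library totals move every gene to the right: Stat5b goes from -0.07 to 0.44, Igfbp4 from -0.64 to -0.12 and Igfbp1 from 0.80 to 1.32, while Ghr stays lowest at -1.15.

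Promoter sequence was read for the genes whose control is best known, to show the response elements behind the names STAT5 target and insulin-repressed gene. RefSeq windows (GRCm38.p6) from 250 bases before to 50 after a transcript start covered 9 of the 10 genes in 14 windows, without Socs2. The STAT5 motif TTCNNNGAA reads the same on both strands. It occurred in 8.30% of 32851 windows of that length and at least 2 times in 0.457%. Among the axis genes it was found in the windows of Cish (2 matches) and Igfals (1 match in each of 2 of its 3 windows). The FOXO motifs CAAAACAA and GTAAACA, searched on both strands, occurred in 2.51% and 3.65% of windows. CAAAACAA was found in the Igfbp1 window and GTAAACA in 1 Igfals window. A match describes letters and not a bound site. The stretches follow, 5′ to 3′ on the gene's strand, with the matches in capitals.
Cish, chr9:107296639-107296688, plus strand, with matches starting at the first base of the transcript and 11 bases after it: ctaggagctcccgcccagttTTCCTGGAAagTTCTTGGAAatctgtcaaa
Igfals, chr17:24878153-24878201, plus strand, with a match starting 58 bases before a start: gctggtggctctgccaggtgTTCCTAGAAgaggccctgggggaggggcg
Igfbp1, chr11:7197659-7197706, plus strand, with a FOXO match starting 108 bases before the start: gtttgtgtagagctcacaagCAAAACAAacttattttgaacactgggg

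Of these genes only Igfals, which holds both STAT5 and FOXO matches, passed the test of the groups. Cish and Igfbp1 did not, so their directions cannot be set against it. Foxo1, the gene of the factor that binds the FOXO motifs, was lower in HepKO (82.7, 96.9 and 130 CPM in WT and 48.5, 37.3 and 38.8 CPM in HepKO, log2 fold change -1.31, FDR 0.00129; named after its values were seen).

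Levels were set in order per kilobase of exon (RPKM, from TMM-scaled totals). In WT the order was Igfbp4 (317 ± 39.3 RPKM), Ghr (94.6 ± 11.6), Igfbp2 (90.8 ± 29.7), Igf1 (80.8 ± 9.64), Igfbp1 (41.3 ± 19.7), Igfals (17.2 ± 5.42), Stat5b (8.36 ± 0.245), Igfbp3 (6.94 ± 1.72), Cish (1.71 ± 1.54) and Socs2 (1.28 ± 0.557). Ghr, Igfbp2 and Igf1 were not separated by their libraries, nor were Stat5b and Igfbp3, nor Cish and Socs2. In HepKO, Igfbp4 stayed at the top (204 ± 7.14 RPKM). Igfbp1 took the next place (71.8 ± 15.8) above Igfbp2 (38.6 ± 5.56), Igf1 (37.9 ± 10.5) and Ghr (29.9 ± 5.40), and the latter group of genes overlapped from neighbour to neighbour. From Igfals (8.46 ± 1.64) down to Cish (2.50 ± 1.20), every neighbouring pair overlapped.

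Ratios of counts within a library do not depend on how libraries are scaled. They were computed for 8 pairs of axis genes, with an exact 2-sided permutation test whose smallest possible p is 0.10 with 3 against 3, so no pair could pass 0.05. The ratio of the inhibitor Socs2 to the receptor Ghr was 0.0173, 0.00799 and 0.0168 in WT and 0.106, 0.0861 and 0.124 in HepKO. Every HepKO library was several-fold above every WT library (7.88-fold on the mean log2 ratio, exact p = 0.10, adjusted p = 0.20). Igfbp1 to Igf1 stood at 0.0607, 0.0606 and 0.109 in WT and 0.497, 0.215 and 0.238 in HepKO. Here too the groups were apart (3.99-fold, exact p = 0.10, adjusted p = 0.20), with HepKO replicate 1 the highest. Without that library the difference in log2 ratio was 2.97 for Socs2 to Ghr, against 2.98 with it, and 1.62 for Igfbp1 to Igf1, against 1.997.

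The ratio of the Igf1 transcript to that of the growth hormone receptor was 0.991, 0.899 and 0.915 in WT and 1.24, 1.32 and 1.56 in HepKO, 1.46-fold higher without overlap (exact p = 0.10, adjusted p = 0.20), with a log2 difference of 0.55, or 0.62 without HepKO replicate 1. Igfbp4 to Igf1 was 1.69 to 1.78 in WT and 1.86 to 3.35 in HepKO, without overlap (exact p = 0.10, adjusted p = 0.20), and its log2 difference of 0.49 was 0.27 without HepKO replicate 1. Igfals and Igfbp2 kept close to Igf1, with log2 differences in the ratio of 0.13 (exact p = 0.60) and -0.065 (exact p = 0.90) that were smaller than the SD within groups. Without HepKO replicate 1 they were -0.04 and -0.21. For Cish to Ghr and Igfbp3 to Igf1 the groups overlapped (exact p = 0.20, adjusted p = 0.267 for both). Their log2 differences were 2.48 and 1.05, or 2.11 and 0.47 without HepKO replicate 1.

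**Figure D3:**
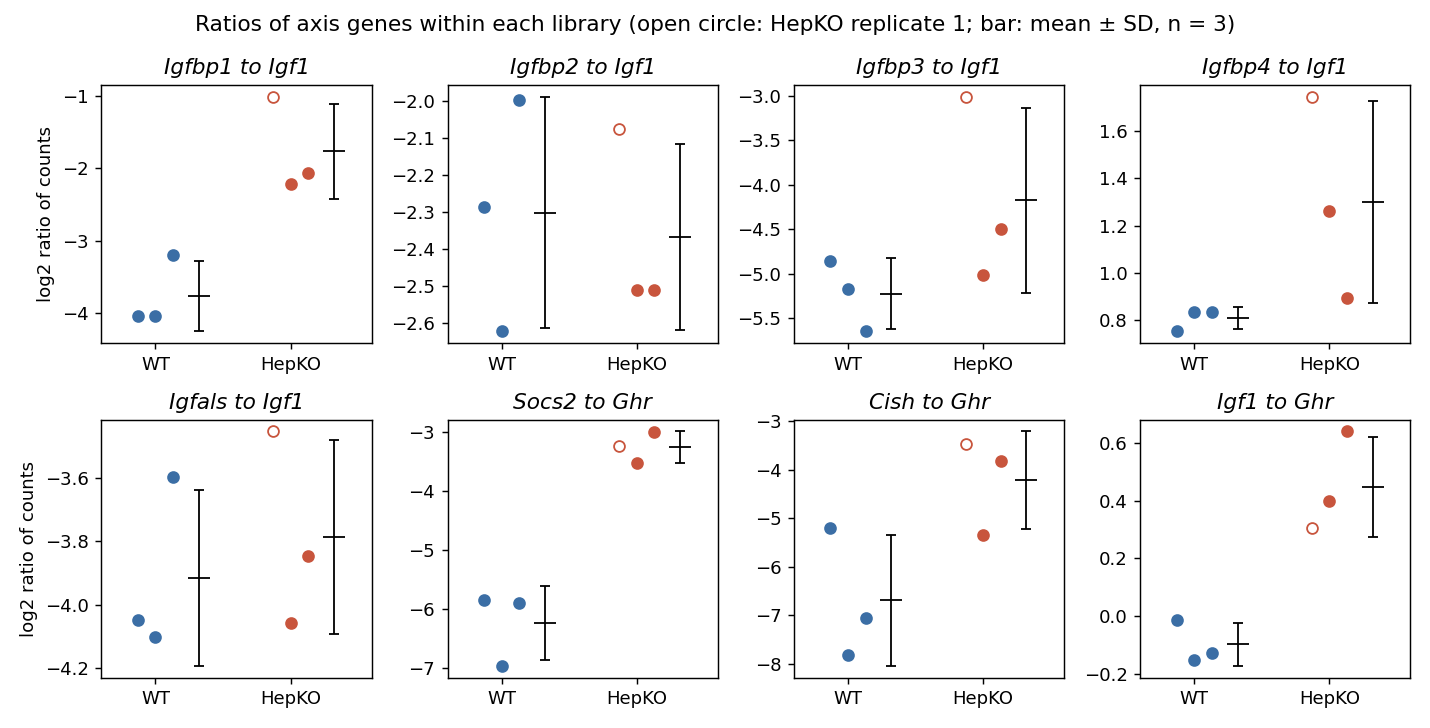
Log2 ratio of raw counts of pairs of axis genes within each library (y axis, a separate scale per pair; points, libraries; bars, mean ± SD of 3; open circle, HepKO replicate 1). The groups do not overlap for Igfbp1 to Igf1, Igfbp4 to Igf1, Socs2 to Ghr and Igf1 to Ghr, and overlap for the other 4 pairs.

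Among the binding protein transcripts, Igfbp1 and Igfbp7 held larger shares in every HepKO library than in any WT library. Shares were taken of the summed counts per kilobase of Igfbp1 to Igfbp7. Igfbp1 held 6.83%, 6.83% and 11.002% in WT and 22.9%, 15.5% and 20.4% in HepKO. Its smallest HepKO share exceeded its largest WT share, a gain of 11.3 percentage points (exact permutation p = 0.10, the smallest possible, adjusted over 7 shares to 0.14). Igfbp7, a related protein made by endothelial and stellate cells with low affinity for IGFs, held 4.54% to 6.59% in WT and 10.2% to 13.3% in HepKO. Igfbp4 made up 62.1% to 69.5% in WT and 53.2% to 59.5% in HepKO, and Igfbp2 made up 15.1% to 20.9% and 9.003% to 12.4%. None of these 4 overlapped between groups (exact p = 0.10 each). Without HepKO replicate 1 the differences were 9.70 percentage points for Igfbp1, 5.92 for Igfbp7, -8.52 for Igfbp4 and -6.96 for Igfbp2. From counts not divided by length they were 5.84, 2.45, -5.08 and -3.54, and Igfbp4 then overlapped, with 80.541% in HepKO replicate 2 and 80.497% in WT replicate 3. Igfbp3 stayed small and overlapped, at 0.983% to 1.90% in WT and 1.08% to 2.79% in HepKO.

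**Figure D4:**
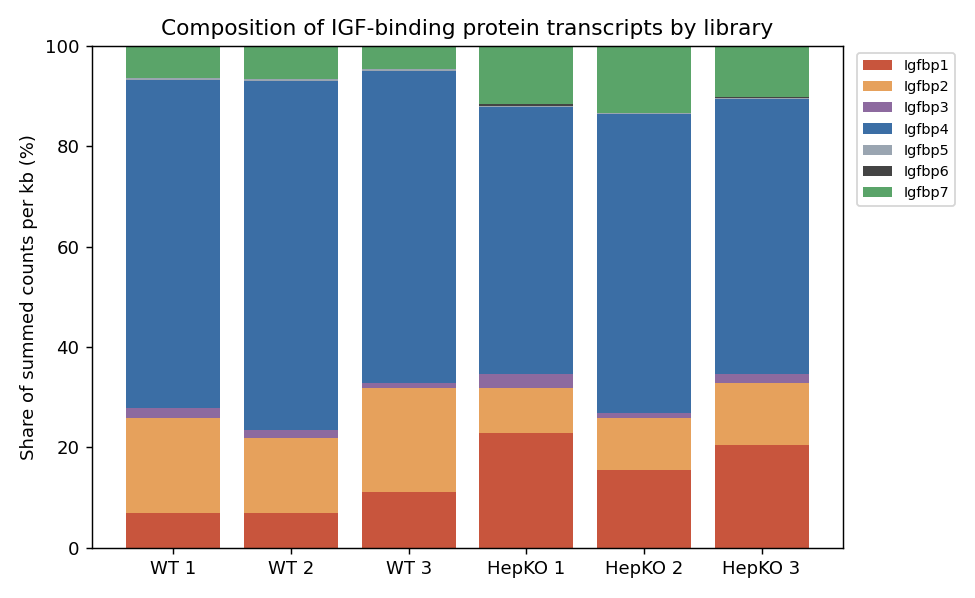
Share of each IGF-binding protein transcript in the summed counts per kilobase of exon of Igfbp1 to Igfbp7 (y axis, percent; 1 bar per library). Igfbp1 goes from a mean of 8.22% in WT to 19.6% in HepKO and Igfbp7 from 5.85% to 11.7%, while Igfbp4 goes from 65.7% to 55.9%.

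Other genes of the pathway were followed in lists drawn up from knowledge of the pathway. In growth hormone receptor signalling, 4 of 12 tested genes rose, where 19.5% of all genes did, and Sh2b1, an adaptor that binds JAK2, fell. Jak2, the kinase of the receptor, had 24.8, 26.5 and 22.5 CPM in WT and 31.4, 36.6 and 36.8 CPM in HepKO (log2 fold change 0.51 ± 0.11 SE, FDR 0.00866). Jak2 was thus higher in the bulk libraries in which Ghr was lower. The part of cell composition in this was not tested. The fall of Sh2b1 (-0.44 ± 0.10 SE, FDR 0.0106) turned under library totals (0.07, FDR 0.568), where 9 genes of the list were higher and 0 lower and 46.4% of all genes were called higher.

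Among receptors and adaptors for IGF and insulin, 2 of 7 tested genes rose and 2 fell, where 19.5% and 18.7% of all genes did. Grb10, an adaptor that inhibits the insulin and IGF-1 receptors, had 2.94, 3.06 and 2.08 CPM in WT and 5.89, 9.83 and 5.92 CPM in HepKO (log2 fold change 1.42 ± 0.28 SE, FDR 0.00573). The insulin receptor gene Insr was lower (254, 235 and 246 CPM against 159, 193 and 187 CPM, log2 fold change -0.45 ± 0.11 SE, FDR 0.0130), with 0.07 under library totals (FDR 0.616). Irs2, an insulin receptor substrate, was lower at the edge of the threshold (-0.56 ± 0.19 SE, FDR 0.0463). Its call ended under library totals (-0.05, FDR 0.832) and without HepKO replicate 1 (FDR 0.0654), HepKO replicate 2 (0.115), HepKO replicate 3 (0.115), WT replicate 1 (0.0886) or WT replicate 3 (0.0507). Igf2, the fetal hormone, had at most 10 counts in a library and was not tested.

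In the list of further binding proteins and IGFBP proteases, 3 of 6 tested genes rose and 1 fell. The shares over all genes were 19.5% and 18.7%. Igfbp5, which like IGFBP3 can carry IGF-1 in the circulating complex, had 8.38, 10.4 and 14.6 CPM in WT and 3.84, 4.50 and 4.27 CPM in HepKO (log2 fold change -1.41 ± 0.23 SE, FDR 0.00235). Igfbp7 rose from 33.6 ± 2.43 to 51.8 ± 6.39 CPM (0.63 ± 0.12 SE, FDR 0.00466). The serine protease gene Htra1, whose product can cleave IGF-binding proteins, rose from 0.857 ± 0.183 to 2.52 ± 0.639 CPM (1.55 ± 0.34 SE, FDR 0.00897). Beside Igfbp7, 1 of 8 sinusoidal endothelial markers and 2 of 8 stellate markers were called higher, where 19.5% of all genes were. The endothelial markers had summed levels of 166 to 200 CPM in WT and 177 to 229 CPM in HepKO. The stellate markers had 266 to 398 CPM and 364 to 459 CPM. Under library totals 5 and 7 of these markers were called higher, where 46.4% of all genes were. Without HepKO replicate 1, 0 and 1 were, where 16.3% of all genes were. The part of these cells in Igfbp7 was not tested.

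Insulin and FOXO1 target genes were mostly lower under TMM. Of 12 tested, 10 fell, where 18.7% of all genes were called lower and 19.5% higher. Sesn3, a stress-induced sestrin named after its values were seen, rose. The list median log2 fold change was -0.94. G6pc, the enzyme that releases glucose, had 425, 325 and 498 CPM in WT and 35.4, 76.7 and 93.3 CPM in HepKO (-2.60 ± 0.34 SE, FDR 0.00107). Pck1, the gatekeeper of gluconeogenesis (-1.81 ± 0.20 SE, FDR 5.69e-04), and Klf15, a transcription factor of fasting metabolism (-1.60 ± 0.18 SE, FDR 5.82e-04), fell too. All 3 were also called under library totals, where 5 genes of the list were lower and 2 higher. Among all genes 5.84% were then lower and 46.4% higher. Igfbp1, whose transcription FOXO1 also drives, was not called under TMM with all libraries (log2 fold change 0.80, FDR 0.0779). Its direction therefore cannot be set against this list.

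Of 10 transcription factors and hormones that act on the axis in liver, 6 fell and Fgf21 rose under TMM. Among all genes 18.7% were lower and 19.5% higher. Under library totals, which called 5.84% of all genes lower, 3 fell, or 2 with HepKO replicate 1 also left out. The log2 fold change turned under library totals for Hnf4a (-0.35 to 0.16, FDR 0.235) and Nr3c1 (-0.30 to 0.21, FDR 0.0730), both named after their values were seen. Ppara, the nuclear receptor of fasting, had 262, 289 and 319 CPM in WT and 75.0, 103 and 81.6 CPM in HepKO (-1.75 ± 0.15 SE, FDR 1.94e-04). The thyroid hormone receptor gene Thrb (-0.85 ± 0.11 SE, FDR 0.00106) and Cebpa, a hepatocyte transcription factor (-0.84 ± 0.15 SE, FDR 0.00348), fell, the latter without a call under library totals (FDR 0.0924). Fgf21, a stress hormone known to lower hepatic growth hormone signalling, had 3.11, 2.90 and 1.41 CPM in WT and 5.77, 6.84 and 10.2 CPM in HepKO (1.62, FDR 0.00836; named after its values were seen).

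Sex-biased liver genes, a classical readout of the growth hormone pattern, split the HepKO libraries along the sex-linked transcripts. HepKO replicate 1, the library with high Xist and almost no Ddx3y, was the lowest of the 6 libraries for 13 of 15 tested male-biased genes and the highest for 11 of 15 tested female-biased genes. Mup3, a major urinary protein gene, had 12084, 5988 and 9059 CPM in WT and 116, 980 and 2219 CPM in HepKO. Susd4, a complement regulator gene, had 33.4, 15.1 and 29.2 CPM in WT and 1.41, 7.13 and 3.43 CPM in HepKO. In both, HepKO replicates 2 and 3 were below WT and replicate 1 lower still. Selenbp2, another male-biased gene, went the other way, with 29.1, 14.4 and 87.7 CPM in WT and 61.5, 343 and 405 CPM in HepKO.

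With all libraries, 1 male-biased gene rose and 2 fell, and 1 female-biased gene rose and 2 fell, so that 2 of 15 lower in each list lay below the 18.7% of all genes. Without HepKO replicate 1, 6 of 15 male-biased genes fell and 1 rose, and 7 of 15 female-biased genes fell and 1 rose, where 17.5% of all genes were called lower and 16.3% higher. Mup3 then had a log2 fold change of -2.51 (FDR 0.00460), against -3.03 ± 0.86 SE with it (FDR 0.0263), and Susd4 -2.29 (FDR 0.00640), against -2.71 ± 0.55 SE (FDR 0.00643). The calls of Mup3 and Selenbp2 ended when single other libraries were left out: Mup3 without WT replicate 1 (FDR 0.0646), WT replicate 3 (0.0585) or HepKO replicate 2 (0.0860), and Selenbp2 without WT replicate 1 (0.105), WT replicate 2 (0.0802), HepKO replicate 2 (0.0903) or HepKO replicate 3 (0.0992). Among female-biased genes, Acot3, an acyl-CoA thioesterase, had 41.8, 78.8 and 102 CPM in WT and 15.3, 2.23 and 2.41 CPM in HepKO (-3.46 ± 0.76 SE, FDR 0.00901). Its log2 fold change was -5.004 (FDR 3.62e-04) without HepKO replicate 1. The monooxygenase gene Fmo2 fell (-1.65 ± 0.39 SE, FDR 0.0128), although not without HepKO replicate 2 (FDR 0.0508). Cyp2a4, a steroid hydroxylase, was the exception that rose in every HepKO library, to 3609, 572 and 998 CPM from 3.51, 11.8 and 2.90 CPM. Mup and Cyp genes belong to families of near-identical copies, so their counts are uncertain.

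**Figure D5:**
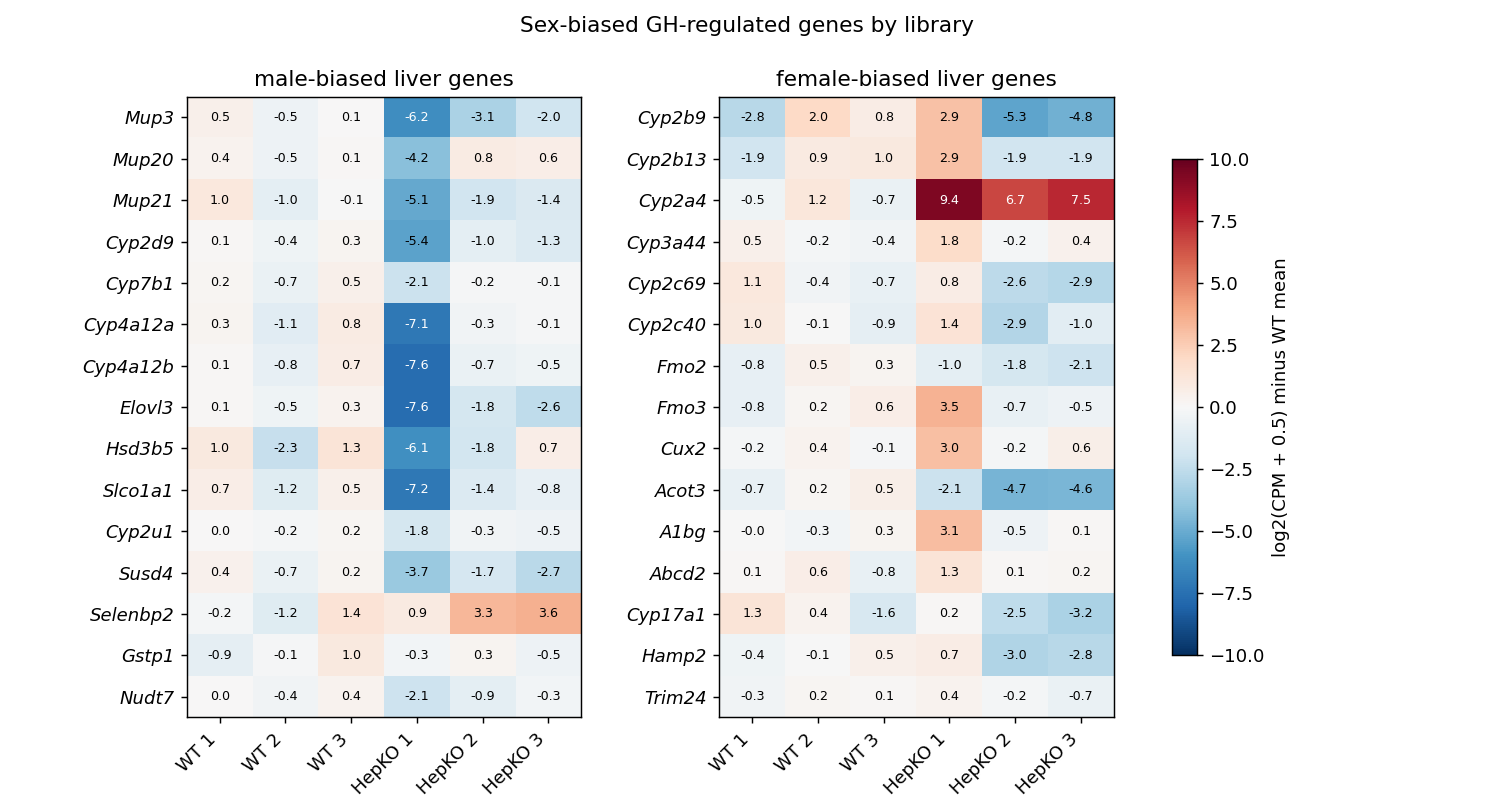
Level of tested male-biased (left) and female-biased (right) growth hormone-regulated genes in each library, as log2(CPM + 0.5) minus the WT mean (colour and printed value; rows, genes; columns, libraries). HepKO replicate 1 is the lowest library for 13 of 15 male-biased and the highest for 11 of 15 female-biased genes.

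Markers of several cell types differed between the groups beside all of these genes. Among all tested genes 18.7% were called lower and 19.5% higher under TMM, and 5.84% and 46.4% under library totals. Of 8 hepatocyte markers 8 were lower (median log2 fold change -0.99), or 7 without HepKO replicate 1. Under library totals 5 were, with a median of -0.48. Of 7 Kupffer cell markers 6 were higher, or 4 without HepKO replicate 1, where 16.3% of all genes were, and 7 under library totals. Of 5 tested recruited macrophage markers 5 were higher (10.4 to 27.4 CPM summed in WT and 91.0 to 159 CPM in HepKO). Of 7 cholangiocyte markers 4 were higher (56.6 to 75.3 CPM and 161 to 586 CPM). Without HepKO replicate 1 these 2 lists had 5 and 4 higher, and under library totals 5 and 5. Most of the cholangiocyte sum was Spp1, which macrophages also express, at 134, 515 and 201 CPM in HepKO. Krt19 and Krt7, keratins that define cholangiocytes and named after their values were seen, overlapped between groups (FDR 0.236 and 0.598). No listed marker was at 0 in every library. The falls of Ghr, Igf1, Igfals, Igfbp2 and Igfbp4 lay between -1.66 and -0.64 on the log2 scale under TMM, around that hepatocyte median, and between -1.15 and -0.12 under library totals. The part of cell composition in them was not tested.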

How the data were processed

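The authors deposited raw read counts per gene for 6 libraries. Per the submitters' processing notes, STAR 2.7.11a, featureCounts of Subread 2.0.0, edgeR 3.40.2 and the mm10 build were used, and neither annotation nor strand setting was given in the sources used here. Without strand, a gene and its antisense partner could not be told apart. Gene IDs were matched without version to GENCODE M21 (GRCm38), which named 55480 of 56350. No library was a copy of another of its group: chi-square per degree of freedom over genes was 24.2 to 117.

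HepKO was compared with WT over all genes kept by filterByExpr (16051), with TMM factors (0.824 to 0.860 in WT, 1.19 to 1.21 in HepKO) and edgeR 4.0.16 under R 4.3.3 (quasi-likelihood test, 2-sided), with no covariate. FDR is the Benjamini-Hochberg value over all tested genes. SE is the log2 fold change over the square root of F. RPKM divides CPM by the union of exons. Ratios and shares used exact permutation tests. The members and lists were chosen with earlier results of these data known. Named besides the 10 genes were Atg14, the 3 genes with the smallest p of each of 7 pathway lists and up to 2 markers per list; 1 gene under this rule is not reported here, and others are marked, or given as counts. Alternatives were DESeq2 1.42.0, limma-voom (limma 3.58.1), RLE factors, library totals, TMM computed after removing the 20 most abundant genes, keeping genes at 1 CPM in 3 libraries, no filter, an FDR of 0.01, a minimum log2 fold change of 1 in size, a replicate block, and leaving out each library. The combination of library totals with leaving out HepKO replicate 1 was chosen after seeing the data.

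The test was tried on simulated counts of 14723 tested genes with these library sizes. It recovered 96.9% of 64 genes changed 4-fold, 60.0% of 55 changed 2-fold and 23.5% of 81 changed 1.5-fold. Of 118 calls 4 were false. Both groups were drawn from the WT means and only those genes were changed. The changed genes were picked above a minimum mean count, and the spread followed the trend over genes instead of each gene's own. The simulation therefore does not cover the composition shift between the groups or the library of female pattern. Nor does it cover changes in genes of low count or genes of unusually wide spread.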

Additional observations from a re-analysis of the deposited data

How the results depend on the processing

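Ghr and Igf1 kept their direction and their call under all 17 settings. Library totals changed most: 3 axis genes were then called higher and 3 lower, against 1 and 5 under TMM, or 3 and 2 with HepKO replicate 1 also left out. Of 75 tested genes in the pathway lists 22 were then higher and 13 lower, against 13 and 22 under TMM. With HepKO replicate 1 also left out, 23 were higher and 21 lower. Among all genes library totals called 46.4% higher and 5.84% lower, against 19.5% and 18.7% under TMM. The log2 fold change turned for Stat5b (0.44, and 0.47 with HepKO replicate 1 also left out), Sh2b1 (0.069 and 0.071) and Insr (0.067 and 0.15), besides Hnf4a and Nr3c1. Igfbp3, at 0.02 with no call, turned with limma-voom (-0.032) and took -0.41 to 0.31 with single libraries left out (below 0 without WT replicate 2, WT replicate 3 or HepKO replicate 1). DESeq2 and no filter each called 2 axis genes higher. An FDR of 0.01 left 0 axis genes higher, and 7 higher and 13 lower in the pathway lists, and a minimum log2 fold change of 1 in size likewise left 7 and 13. Leaving out single libraries gave 0 to 2 axis genes higher and 8 to 13 pathway genes higher, the lowest of both without HepKO replicate 3, and 18 to 31 pathway genes lower, the highest without HepKO replicate 1. Shares from counts not divided by length differed between groups by 5.84 percentage points for Igfbp1, -3.54 for Igfbp2, -5.08 for Igfbp4 and 2.45 for Igfbp7, since short transcripts then weigh less. Where no reason is given, the cause was not tested. The replicate block called 2 axis genes higher (Igfbp1 log2 fold change 0.88, FDR 0.0395; Igfbp3 -0.069), but same-numbered samples did not deviate together (r = -0.14, -0.11 and 0.03 across genes), so the numbers do not pair the samples. Cish and Socs2 rested on 124 to 1481 counts a library, including the lowest counts of the axis genes.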

Other observations

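Values of some further genes of the axis depended on single libraries, and they were picked after their values were seen. Prlr, the prolactin receptor gene and a close relative of Ghr, had 87.9, 129 and 128 CPM in WT and 113, 27.3 and 48.6 CPM in HepKO. With all libraries it was not called (log2 fold change -0.87, FDR 0.165), and without HepKO replicate 1 it was lower (-1.61, FDR 0.00464). Bcl6, a repressor that binds many STAT5 sites in male liver, was high in 1 library of each group, with 13.8, 50.3 and 22.8 CPM in WT and 8.71, 59.9 and 8.38 CPM in HepKO (FDR 0.885, and 0.0422 without HepKO replicate 2, where the log2 fold change was -1.77). WT replicate 2, the high Bcl6 library of its group, had the lowest WT values of Socs2 and Cish. HepKO replicate 2, the other one, had the lowest HepKO value of Cish but not of Socs2.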
